A study of Mus musculus with 28 samples.

Results

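Adenosine is an extracellular signal of the brain, and its pathway was followed here in nascent RNA through 8 genes: the receptors Adora1, Adora2a, Adora2b and Adora3, and 4 genes of adenosine handling, Nt5e, Ada, Adk and Slc29a1. They were taken by gene name from the authors' comparison tables, which list 22919 genes, of which 21192 have a test. The set was chosen by its measured responses to TTX and BIC in these same tables, so its values are a description and its members' calls are no independent evidence of a response.

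The cultures were grown from pooled cortices and hippocampi of CD1 mouse embryos at embryonic day 18, with balanced sex ratios, and are labelled as neurons, astrocytes and oligodendrocyte precursor cells. On day in vitro 14 every culture received a lentivirus, which carried a control hairpin (shCtrl) or a hairpin against Rai1 (shRai1), a chromatin regulator, so the control arm was infected too. On day in vitro 17 each arm was given vehicle (water), tetrodotoxin (TTX, 1 µM), which blocks sodium channels and silences the network, or bicuculline (BIC, 20 µM), which blocks GABA-A receptors and raises its activity, for 4 h. Bromouridine (2 mM) was present in the last 20 min, and Bru-seq captured and sequenced the RNA that had taken it up, so that the reads report transcription in that window. There were 16 libraries in 6 groups: 3 each for shCtrl with TTX, shRai1 with vehicle, shRai1 with TTX and shRai1 with BIC, and 2 each for shCtrl with vehicle and shCtrl with BIC. By their titles, the shCtrl vehicle libraries are replicates 1 and 2, and the shCtrl BIC libraries replicates 2 and 3. Whether a replicate number marks the same pool in each group was not tested. The series' design text calls the replicates biological, each a pool of embryos, and 12 ChIP samples of the series were not analysed here.

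Cells release ATP, and membrane enzymes strip its phosphates in steps, the last of which, from AMP to adenosine, is made by the ecto-5′-nucleotidase that Nt5e encodes. Adenosine then binds G protein-coupled receptors. The products of Adora1 and Adora3 lower cyclic AMP through Gi proteins, while those of Adora2a and Adora2b raise it through Gs or the olfactory-type G protein. The Adora1 receptor is widespread in cortex and hippocampus, where it damps transmitter release, and the Adora2a receptor is densest in striatal neurons that also make the dopamine receptor Drd2. Slc29a1, an equilibrative nucleoside transporter, lets adenosine cross the membrane; inside the cell adenosine kinase (Adk) returns it to AMP and adenosine deaminase (Ada) turns it into inosine.

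Promoter sequence was read for the handling genes that were called, since Adk and Slc29a1 fell together under BIC while Nt5e fell under TTX. RefSeq windows from 250 bases before to 50 after a start (GRCm38.p6) were given for 7 of the 8 genes, all but Adora2a, 16 windows in all, with 8 of them for Slc29a1. Printed are the last 60 bases before the start for Nt5e at chr9:88327549-88327608 (+ strand) and for the first listed Adk start at chr14:21052514-21052573 (+ strand), and 29 bases, 97 to 69 before the fourth listed Slc29a1 start, at chr17:45595933-45595961 (− strand), all 5′ to 3′ with motif matches in capitals:
Nt5e: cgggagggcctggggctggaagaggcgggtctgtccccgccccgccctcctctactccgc
Adk: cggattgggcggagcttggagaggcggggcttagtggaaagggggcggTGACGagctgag
Slc29a1: gtgaataatgGCGTGGGCGgggttcggag

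Motif letters were searched on both strands in the whole windows. The core TGACG of the cyclic AMP response element lay 12 to 8 bases before that Adk start and in 1 Slc29a1 window, and 20.8% of all 32851 promoter windows hold it. The EGR motif GCGTGGGCG lay 87 to 79 bases before the Slc29a1 start shown, in 1 of its 8 windows, and in the Ada window. These are 2 of the 16 windows, against 0.612% of all windows. The Slc29a1 stretch was printed because it holds this match. TGANTCA, the AP-1 motif, was in 1 window each of Adora1 and Adora3 (7.81% of all windows), and the E-box CACGTG in 1 Slc29a1 window (7.15%). The full response element TGACGTCA, which contains the core, was in 0 of the 16 windows of these 7 genes (1.79% of all), as was the MEF2 motif (0.164% of all). A match of letters is a description and not a binding site.

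Adora2a had the widest range of the 8 genes across the drugs: BIC lowered it about 12.5-fold in shCtrl and 9.85-fold in shRai1, and TTX raised it 1.43-fold and 1.58-fold. Adk fell under both drugs, Nt5e fell under TTX, and Slc29a1 fell under BIC, in each arm. The authors' pooled FPKM of shCtrl did not show the Nt5e fall. Adora1, Adora2b, Adora3 and Ada passed no test. At the authors' adjusted p under 0.05, 3 of the 8 genes were called in each of the 4 drug responses. Of the genes with an adjusted p, 26.7% were called for TTX in shCtrl (11.8% higher, 14.9% lower), 34.4% for BIC in shCtrl (17.4% higher, 17.0% lower), 30.5% for TTX in shRai1 (13.7% higher, 16.8% lower) and 42.5% for BIC in shRai1 (21.3% higher, 21.3% lower). With TTX, 1 member was higher and 2 were lower in each arm, and with BIC 0 were higher and 3 lower in each arm. Nothing is read from these counts, since the responses chose the genes.

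The median log2 change of the 8 members was -0.03 for TTX and -0.07 for BIC in shCtrl, and -0.09 and -0.34 in shRai1. The medians over all genes with an adjusted p were 0.00 and -0.02 in shCtrl and 0.00 and 0.00 in shRai1. TTX and BIC of an arm were compared with the same vehicle libraries, so these 2 responses are not independent of each other, while the 2 arms share no library. The tables hold 1 mean over the 16 libraries per gene and the changes between groups, and values per library were not analysed here. Group levels are therefore given as implied normalized counts, the group levels that these figures fix together, divided by the length of the authors' gene interval where genes are compared. They have no SD. Because the deposited changes are pulled toward 0 for lightly counted genes, the implied counts of such genes, Ada, Adora3 and Slc29a1 among the members, may lie closer together than the group means, and overlap between the libraries of the groups cannot be shown; the SE given with a log2 change is the authors'. Library totals are not given in the files used, so depth is described by the mean normalized count, whose median over tested genes was 107.

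**Figure D1:**
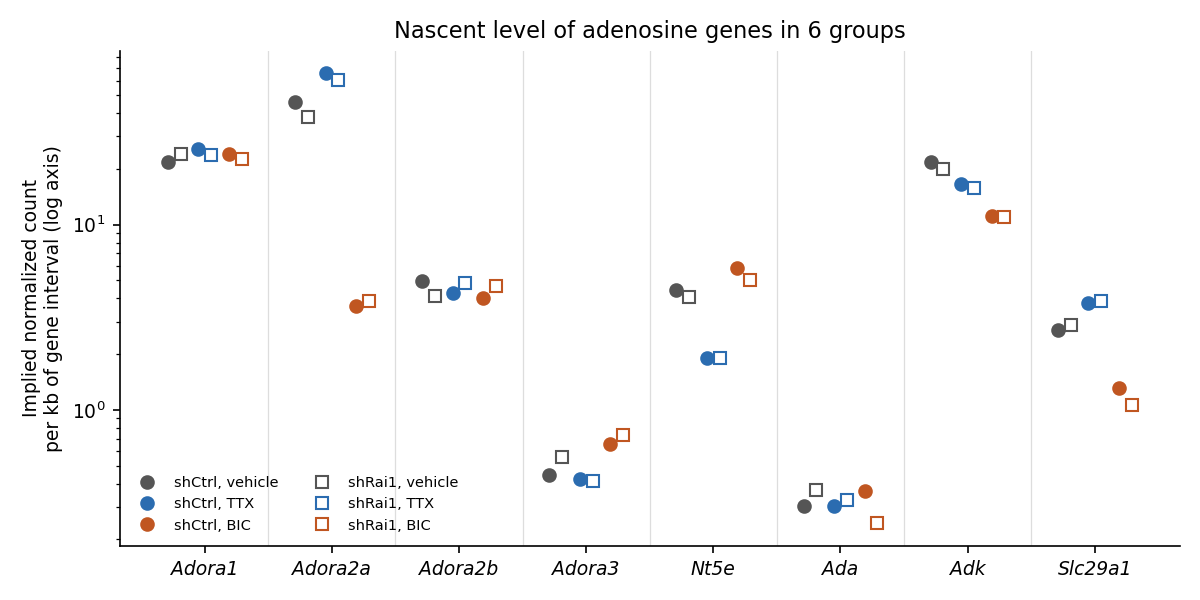
Implied normalized count per kb of gene interval (log axis) for the 8 adenosine genes in the 6 groups, each point the level implied for 1 group of 2 or 3 libraries, filled for shCtrl and open for shRai1, with no error bar because none can be given. Adora2a lies at 38.3 to 65.7 with vehicle or TTX and at 3.66 and 3.89 with BIC, while Adora1 stays between 21.7 and 25.7.

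Among the receptors, Adora2a (chr10:74779622-74797537 in the authors' intervals, of mm9 per the submitters' processing notes) had a mean normalized count of 676. Its implied counts were 821 with vehicle, 1177 with TTX and 65.5 with BIC in shCtrl, and 686, 1084 and 69.7 in shRai1. Both BIC groups were far below the other 4, and both TTX groups were above the vehicle groups. The log2 change with BIC in the authors' deposited table was -3.65 (SE 0.19, adjusted p 1.89e-81) in shCtrl. In shRai1 the authors' deposited table gave -3.30 (SE 0.15, adjusted p 1.05e-99). With TTX the authors' deposited table listed 0.52 (SE 0.13, adjusted p 0.000722) in shCtrl. The shRai1 change with TTX was 0.66 (SE 0.12, adjusted p 4.29e-07), per the authors' deposited table. Of 21192 tested genes, 0 had a lower log2 change with BIC than Adora2a in either arm. These changes are pulled toward 0 for lightly counted genes, and the BIC response was among the values that chose the set. With TTX, 1302 genes had a higher log2 change in shCtrl and 706 in shRai1.

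Adora1, the inhibitory receptor, passed no test in any drug response. Its interval (chr1:136090025-136132034) overlaps that of Mybph, so reads may be shared between them as far as the counting did not separate them by strand. Its mean normalized count was 999, and its implied counts were 913 with vehicle, 1081 with TTX and 1016 with BIC in shCtrl, and 1008, 1005 and 950 in shRai1. Its lowest and highest group means lay close together. Under TTX the authors' deposited table gave 0.24 (SE 0.12, adjusted p 0.130) in shCtrl and -0.00 (SE 0.11, adjusted p 0.987) in shRai1. Under BIC the values in the authors' deposited table were 0.15 (SE 0.14, adjusted p 0.421) and -0.09 (SE 0.11, adjusted p 0.576). The widest of the 95% intervals for BIC, that of shCtrl, ran from -0.11 to 0.42 on the log2 scale, so a change of the size seen in Adora2a lay far outside it.

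Per kb, Adora2a exceeded Adora1 with vehicle and TTX and fell below it with BIC. The ratio of Adora2a to Adora1 in implied count per kb was 2.11 with vehicle, 2.55 with TTX and 0.151 with BIC in shCtrl, and 1.60, 2.53 and 0.172 in shRai1. Summed over the 4 receptors, Adora2a held 62.8% of the implied count per kb with vehicle, 68.3% with TTX and 11.2% with BIC in shCtrl, and 57.2%, 67.4% and 12.2% in shRai1. Adora1 held 74.3% with BIC in shCtrl and 70.8% in shRai1, against 29.8% and 35.8% with vehicle. The values change with the file: in the control arm's pooled FPKM the ratio of Adora2a to Adora1 was 1.39 with vehicle, 1.60 with TTX and 0.0420 with BIC, and the share of Adora2a among the receptors was 46.5%, 51.5% and 2.58%, in the same direction with BIC. These shares follow from the Adora2a change that chose the set.

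Adora2b, the low-affinity stimulatory receptor (chr11:62062486-62079954), had a mean normalized count of 78.5 and implied counts from 70.5 (shCtrl with BIC) to 86.3 (shCtrl with vehicle). Its log2 changes in the authors' deposited tables were -0.20 (SE 0.21) with TTX and -0.29 (SE 0.23) with BIC in shCtrl, and 0.23 (SE 0.19) and 0.18 (SE 0.19) in shRai1, with adjusted p from 0.360 to 0.549. The signs differed between the arms, and the differences between arms, 0.44 (SE 0.29) for TTX and 0.47 (SE 0.30) for BIC, did not pass the test (adjusted p 0.627 and 1.00).

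Adora3 (chr3:105673776-105726962), the other Gi-coupled receptor, was counted at a mean of 28.5. Its implied counts were 23.5 with vehicle, 22.5 with TTX and 34.7 with BIC in shCtrl, and 29.6 with vehicle, 22.02 with TTX and 38.8 with BIC in shRai1. The BIC group was the highest of its arm in both, but the change was not called: the authors' deposited table gave 0.56 (SE 0.32, adjusted p 0.178) in shCtrl and 0.39 (SE 0.27, adjusted p 0.264) in shRai1. Under TTX the authors' deposited tables held -0.06 (SE 0.31, adjusted p 0.922) and -0.43 (SE 0.28, adjusted p 0.264). At this count the 95% interval of the BIC change in shCtrl ran from -0.07 to 1.19, so a doubling could not be told from no change.

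Microglia express Adora3, and the summed implied count of the 8 microglia markers was highest with BIC, at 199.97 in shCtrl and 171 in shRai1, against 117 to 121 in the other 4 groups. Of these markers 3 had a mean of at least 10, and C1qa and C1qb were under 1. Their part in the Adora3 values was not tested.

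On the supply side, Nt5e (chr9:88222447-88266927), which makes adenosine outside the cell, had a mean normalized count of 165. Its implied counts were 198 with vehicle, 84.8 with TTX and 259 with BIC in shCtrl, and 181, 84.9 and 225 in shRai1. Both TTX groups were the lowest of their arm, at nearly the same level, and both BIC groups were the highest. The fall with TTX in the authors' deposited table was -1.23 (SE 0.18, adjusted p 5.01e-10) in shCtrl, or 2.34-fold. In shRai1 the authors' deposited table gave -1.09 (SE 0.16, adjusted p 7.90e-10), or 2.13-fold. With BIC the changes of 0.39 (SE 0.19, adjusted p 0.0974) and 0.31 (SE 0.15, adjusted p 0.0882), per the authors' deposited tables, missed the threshold.

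The authors' pooled FPKM, a level scaled to gene length and library size, did not show the fall of Nt5e with TTX. Nt5e was at 6.93 FPKM with vehicle (bounds in the file 4.78 to 9.07), 7.05 with TTX (4.88 to 9.22) and 12.6 with BIC (9.23 to 15.9) in shCtrl. The FPKM of Nt5e was also high for its count: its mean shCtrl FPKM was 2.38 times its mean count per kb, where the median of 12311 genes was 0.487 and 92.6% of them had a lower ratio. The cause of the difference between the files was not tested, and the Nt5e fall with TTX is a result of the comparison tables alone.

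Adk, which clears adenosine inside the cell, was the most heavily counted of the 8 genes, with a mean of 6337 over an interval of 396 kb (chr14:21871796-22267791). Its implied counts were 8625 with vehicle, 6543 with TTX and 4396 with BIC in shCtrl, and 7959, 6272 and 4345 in shRai1. The order of the drugs was the same in both arms, with vehicle highest and BIC lowest. With BIC the authors' deposited table gave -0.97 (SE 0.14, adjusted p 4.06e-11) in shCtrl. The shRai1 value in the authors' deposited table was -0.87 (SE 0.11, adjusted p 3.28e-14). The smaller fall with TTX was -0.40 (SE 0.12, adjusted p 0.00747) in shCtrl and -0.34 (SE 0.11, adjusted p 0.00871) in shRai1, per the authors' deposited tables. A direct test of BIC against TTX was not made, and the covariance of the 2 changes, which share the vehicle libraries, is not given.

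Ada, the deaminase, (chr2:163552307-163575975), was lightly counted, with a mean normalized count of 7.50 and implied counts from 5.79 (shRai1 with BIC) to 8.76 (shRai1 with vehicle). Per kb, the implied count of Adk with vehicle in shCtrl was 71.9 times that of Ada, but in the pooled FPKM of the same group it was 1.76 times, with overlapping bounds, so the size of the gap depends on the file used. The authors' filter left Ada without an adjusted p for TTX. For BIC the authors' deposited tables gave 0.27 (SE 0.42, adjusted p 0.672) in shCtrl and -0.60 (SE 0.40, adjusted p 0.243) in shRai1. The 95% intervals ran from -0.54 to 1.09 in shCtrl and from -1.39 to 0.19 in shRai1. Since changes of lightly counted genes are pulled toward 0, these intervals do not bound what could be detected.

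Slc29a1, the transporter (chr17:45722149-45736552), had a mean normalized count of 38.5. Its implied counts were 38.7 with vehicle, 54.5 with TTX and 19.0 with BIC in shCtrl, and 41.5, 55.5 and 15.3 in shRai1. The BIC groups were the lowest and the TTX groups the highest of both arms. With BIC the authors' deposited table gave -1.03 (SE 0.32, adjusted p 0.00470) in shCtrl, or 2.04-fold lower. For shRai1 the authors' deposited table listed -1.43 (SE 0.28, adjusted p 2.29e-06), or 2.70-fold lower. The TTX values of 0.49 (SE 0.27, adjusted p 0.175) and 0.42 (SE 0.24, adjusted p 0.188), per the authors' deposited tables, did not pass.

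**Figure D2:**
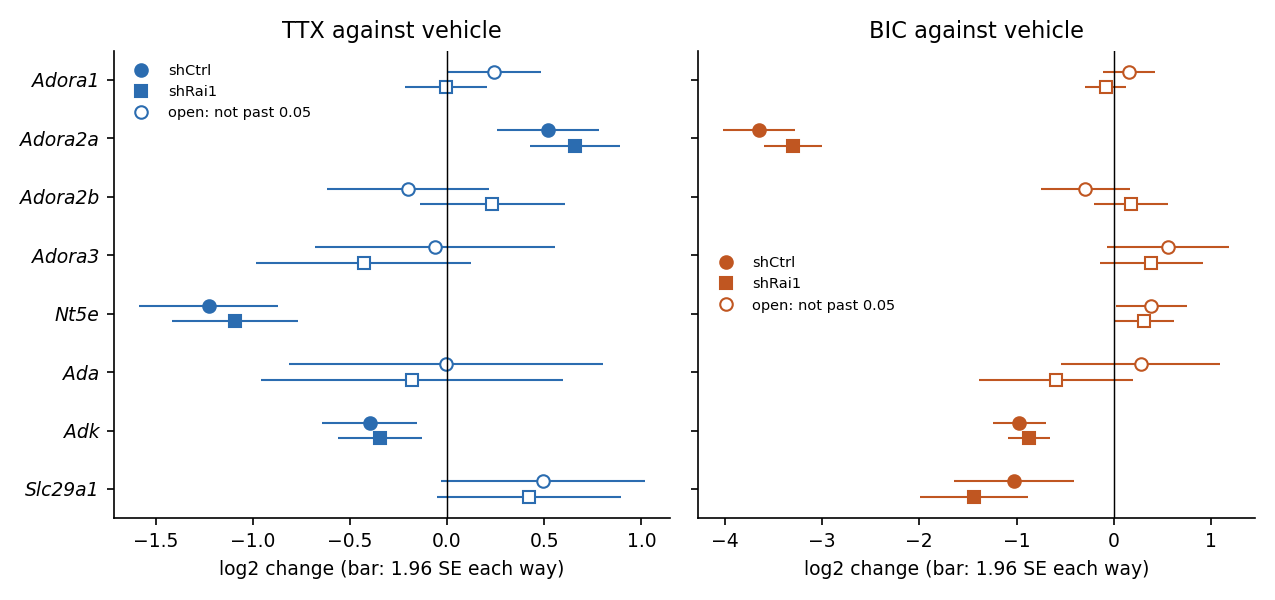
Deposited log2 changes of the 8 adenosine genes with TTX (left) and BIC (right) against vehicle of the same arm, circles for shCtrl and squares for shRai1, filled where the authors' adjusted p is under 0.05, with bars for 95% intervals; the axes of the panels differ. Adora2a is at -3.65 and -3.30 with BIC and Nt5e at -1.23 and -1.09 with TTX, and the bars of the arms overlap for each gene.

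Rai1, the targeted gene, gave no check of the arm labels. Its log2 difference between shRai1 and shCtrl, per the authors' deposited tables, was 0.16 (SE 0.07, adjusted p 0.357) with vehicle, -0.12 (SE 0.06, adjusted p 1.00) with TTX and 0.03 (SE 0.07, adjusted p 1.00) with BIC, so nascent Rai1 RNA was not called lower in the libraries labelled shRai1. A hairpin acts on mature RNA, which was not analysed here, so the size of the knockdown was not tested. The arms are named by their labels throughout.

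The Rai1 knockdown was compared with the control hairpin within each treatment, and 0 of the 8 adenosine genes was called in any of these 3 comparisons, by adjusted p or at an unadjusted p under 0.05. With vehicle only 7 of the 8 had an adjusted p, since Ada had none. Of all genes with an adjusted p in the authors' DESeq2 tables, 0.857% were called with vehicle, 0.0283% with TTX and 0.00944% with BIC, and 1642, 700 and 621 tested genes had an unadjusted p under 0.05. The largest member difference with vehicle was 0.33 (SE 0.31, adjusted p 0.749) for Adora3. Adora2a came closest to the threshold, at -0.26 (SE 0.13, adjusted p 0.464), per the authors' deposited table, with a 95% interval from -0.52 to 0.01. With TTX and BIC its differences in the authors' deposited tables were -0.12 (SE 0.12) and 0.09 (SE 0.20). Adk differed by -0.12 (SE 0.12) with vehicle, -0.06 (SE 0.11) with TTX and -0.02 (SE 0.12) with BIC, and Adora1 by 0.14 (SE 0.12), -0.11 (SE 0.11) and -0.10 (SE 0.12), per the authors' deposited tables. The widest spread was that of Ada, with -0.58 (SE 0.41) under BIC.

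Whether the knockdown altered a drug response was tested on the difference of the responses, shRai1 minus shCtrl, with a Wald test on the deposited changes adjusted over 15237 genes. For TTX 1.22% of these genes were called and for BIC 0.0263%, and 0 of the 7 adenosine genes tested was among them; Ada, under the mean count of 10, was left out of the adjustment. None of the 8 had an unadjusted p under 0.05; over all tested genes 1662 and 564 had such a p. The difference for Adora2a was 0.14 (SE 0.18, 95% interval -0.21 to 0.49) with TTX and 0.35 (SE 0.24, -0.13 to 0.82) with BIC. For Nt5e it was 0.14 (SE 0.25, -0.35 to 0.62) with TTX, and for Adk 0.10 (SE 0.18, -0.25 to 0.45) with BIC. Slc29a1 differed by -0.41 (SE 0.42, -1.24 to 0.42) with BIC. These intervals still hold differences of up to 0.45 on the log2 scale for Adk, 0.82 for Adora2a and -1.24 for Slc29a1, so similar responses in the 2 arms are not shown.

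The control arm's pooled FPKM gave a separate measure of level per length. With vehicle the order was Adora2a at 22.7 FPKM (bounds 16.8 to 28.6), Adora1 at 16.3 (12.4 to 20.3), Adk at 8.39 (5.32 to 11.5), Nt5e at 6.93, Adora3 at 6.67 (3.88 to 9.46), Ada at 4.76 (2.56 to 6.95), Adora2b at 3.11 (1.44 to 4.79) and Slc29a1 at 2.30 (0.722 to 3.88). Adora1 and Adk were the only neighbours in this order whose bounds did not overlap. By implied count per kb the order was Adora2a, Adk, Adora1, Adora2b, Nt5e, Slc29a1, Adora3 and Ada.

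Adora3 and Ada stood higher by FPKM than by count. Their FPKM was 12.5 and 15.2 times their count per kb, and 98.7% and 99.0% of the 12311 reference genes had a lower ratio, while the other members except Nt5e were between 0.457 and 0.867. Levels of Adora3, Ada and Nt5e relative to the rest therefore depend on the file used, and the cause was not tested.

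In FPKM, Adora2a was at 28.6 with TTX (21.3 to 35.9) and 0.713 with BIC (0.0360 to 1.39), so its BIC bounds lay below those of vehicle. Adora1 was at 17.9 with TTX and 17.0 with BIC. Slc29a1 was at 3.38 with TTX and 1.27 with BIC, and Adk at 7.61 and 5.96, and the bounds of these genes overlapped those of vehicle. The bounds of Nt5e with BIC lay just above those of vehicle. Adora3 was at 5.61 and 7.81, Ada at 3.54 and 6.14, and Adora2b at 3.39 and 2.09 FPKM, again within overlapping bounds.

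The knockdown arm's FPKM columns give no levels here, because the column named for the untreated knockdown followed shRai1 with TTX of the comparison tables best (r = 0.827 across 12311 genes, which are not independent replicates), the one named for TTX followed shRai1 with BIC (r = 0.836), and the one named for BIC followed shRai1 with vehicle (r = 0.664). Under those column names Adora2a was listed at 27.2 FPKM for the untreated knockdown, 1.54 for TTX and 15.8 for BIC. The 3 control columns followed their own groups best, with r = 0.593 for vehicle, 0.823 for TTX and 0.817 for BIC.

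**Figure D3:**
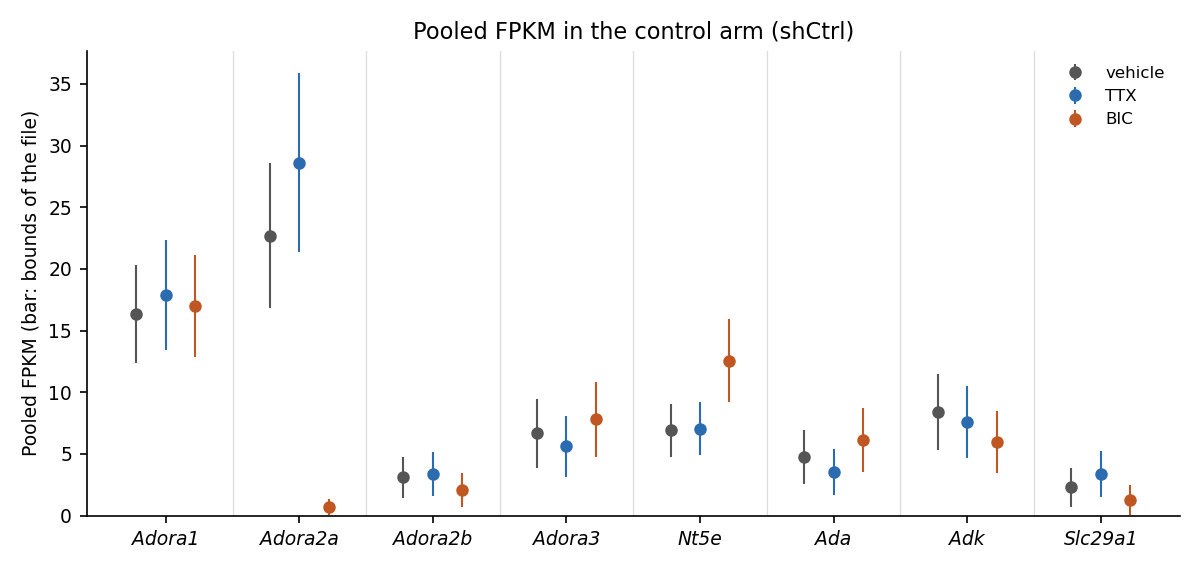
Pooled FPKM of the 8 adenosine genes in the control arm with vehicle, TTX and BIC; points are the authors' pooled values and bars the lower and upper bounds given in the file. Adora2a drops from 22.7 with vehicle to 0.713 with BIC, and Nt5e stands at 6.93, 7.05 and 12.6.

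Other genes of the pathway were counted in 6 lists taken from textbook roles. Their counts stand beside calls in either direction for 26.7% (TTX) and 34.4% (BIC) of all genes with an adjusted p in shCtrl and 30.5% and 42.5% in shRai1. Among 7 enzymes that hydrolyse nucleotides outside the cell, 0 rose and 2 fell with TTX in shCtrl, 2 rose and 0 fell with BIC in shCtrl, 0 rose and 1 fell with TTX in shRai1, and 3 rose and 0 fell with BIC in shRai1. The list's median log2 change was 0.31 with BIC in shCtrl and 0.46 in shRai1, beside -0.02 and 0.00 over all genes with an adjusted p. Enpp1, a pyrophosphatase that cleaves ATP to AMP, fell with TTX in both arms, at -1.08 (SE 0.22) in shCtrl and -0.97 (SE 0.19) in shRai1 on the log2 scale, per the authors' deposited tables. Alpl, tissue-nonspecific alkaline phosphatase, which can also release adenosine from AMP, rose with BIC by 0.82 (SE 0.24) and 0.59 (SE 0.20), per the authors' deposited tables. Entpd3, an ATP diphosphohydrolase, was higher with BIC in shRai1 at 0.46 (SE 0.18, adjusted p 0.0233), and stood at 0.31 (SE 0.21, adjusted p 0.282) in shCtrl, in the authors' deposited tables. Enpp3, of the same family as Enpp1 and named after its values were seen, accounts for the remaining calls, with -1.11 (SE 0.34) for TTX in shCtrl and 1.41 (SE 0.31) and 2.43 (SE 0.28) for BIC in the authors' deposited tables, at a mean count of 33.0.

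Among 9 other nucleoside transporters and ATP release channels, 1 rose and 0 fell with TTX and 1 rose and 3 fell with BIC in shCtrl, while 3 rose and 2 fell with TTX and 1 rose and 2 fell with BIC in shRai1. Panx2, a pannexin, moved in the directions of Adora2a in all 4 responses, with 0.76 (SE 0.17) for TTX and -0.65 (SE 0.20) for BIC in shCtrl and 0.53 (SE 0.15) and -0.69 (SE 0.16) in shRai1, per the authors' deposited tables. Slc29a4, the plasma membrane monoamine transporter, which also carries adenosine, fell with BIC, at -1.11 (SE 0.17) in shCtrl and -1.38 (SE 0.13) in shRai1, per the authors' deposited tables. Its TTX values were -0.48 (SE 0.12, called) in shRai1 and 0.01 (SE 0.14) in shCtrl, again per the authors' deposited tables. Slc29a3, the lysosomal nucleoside transporter, was at -0.53 (SE 0.16, adjusted p 0.00534) with BIC in shCtrl and at 0.69 (SE 0.13, adjusted p 8.93e-07) with TTX in shRai1. It was not called with TTX in shCtrl (0.16, adjusted p 0.454) or with BIC in shRai1 (-0.21, adjusted p 0.222), per the authors' deposited tables. Slc29a2, the closest relative of Slc29a1, fell with TTX in shRai1, at -0.84 (SE 0.14), per the authors' deposited tables. In shCtrl its TTX value of -0.33 (SE 0.16, adjusted p 0.116) was not called, per the authors' deposited table. With BIC it was not called in either arm (-0.00 in shCtrl and -0.13 in shRai1), per the authors' deposited tables. Slc28a1, a concentrative transporter named after its values were seen, was called higher in 3 responses at a mean count of 21.5. None of these arm differences passed the test of the difference itself (adjusted p 0.181 to 0.277 for TTX in Slc29a2, Slc29a3 and Slc29a4).

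Among 21 enzymes of intracellular AMP, adenosine and purine salvage, 2 rose and 2 fell with TTX and 3 rose and 5 fell with BIC in shCtrl, and 5 rose and 3 fell with TTX and 5 rose and 6 fell with BIC in shRai1. The list's median with BIC was -0.03 in shCtrl and -0.08 in shRai1, close to those of all genes with an adjusted p. Ampd1, an AMP deaminase known from muscle, rose with BIC by 2.29 (SE 0.27) and 1.99 (SE 0.22), per the authors' deposited tables, at a mean count of 57.2. Ahcyl1, a relative of S-adenosylhomocysteine hydrolase, rose with BIC by 0.81 (SE 0.10) and 0.93 (SE 0.08), per the authors' deposited tables. Nt5c2, a cytosolic nucleotidase whose interval overlaps Ina, was lower with BIC at -0.57 (SE 0.09) and -0.57 (SE 0.07), per the authors' deposited tables. Ak5, an adenylate kinase of brain whose interval overlaps AI115009 and Zzz3, was lower at -0.69 (SE 0.13) and -0.67 (SE 0.10), per the authors' deposited tables.

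P2 receptors, which bind ATP and other nucleotides rather than adenosine, gave 2 calls over the 4 drug responses: of 14 listed, 13 had a test, 9 had an adjusted p in each response except BIC in shRai1, where 11 had one, and 1 was called in shCtrl with BIC and 1 in shRai1 with TTX, beside 26.7% to 42.5% of all genes with an adjusted p per response. These were P2ry4, at 0.67 (SE 0.21, adjusted p 0.00632), and P2ry2, named after its values were seen, at 0.73 (SE 0.26, adjusted p 0.0227), per the authors' deposited tables.

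The receptors act through G proteins and adenylyl cyclases, and of 17 such genes 1 rose and 4 fell with TTX and 2 rose and 7 fell with BIC, counts that were the same in each arm. Of these genes 16 had an adjusted p, and over all genes with one 11.8% rose and 14.9% fell with TTX and 17.4% rose and 17.0% fell with BIC in shCtrl, and 13.7%, 16.8%, 21.3% and 21.3% in shRai1. Adcy5, the main cyclase of striatal neurons and a partner of the Adora2a receptor, fell with BIC, at -1.68 (SE 0.20) in shCtrl and -1.57 (SE 0.17) in shRai1, per the authors' deposited tables. With TTX it stood at 0.43 (SE 0.19, adjusted p 0.0691) and 0.33 (SE 0.17, adjusted p 0.118), per the authors' deposited tables. Adcy8, a calcium-stimulated cyclase, moved in the opposite sense, by -1.37 (SE 0.12) with TTX and 1.17 (SE 0.13) with BIC in shCtrl and -1.40 (SE 0.11) and 1.30 (SE 0.11) in shRai1, per the authors' deposited tables. Adcy1, the other calcium-stimulated cyclase, fell under both drugs, at -0.78 (SE 0.09) and -0.93 (SE 0.10) in shCtrl and -1.05 (SE 0.08) and -1.07 (SE 0.08) in shRai1, per the authors' deposited tables. Gnai1, 1 of the inhibitory G protein subunits through which Adora1 can signal, was at -0.39 (SE 0.09) with TTX and 0.42 (SE 0.10) with BIC in shCtrl and at -0.34 (SE 0.08) and 0.55 (SE 0.08) in shRai1, per the authors' deposited tables. The other subunits of this kind on the list, named after their values were seen, did not share the BIC response: Gnai2 fell, at -0.67 (SE 0.12) and -0.57 (SE 0.10), and Gnai3 (-0.05 in each arm) and Gnao1 (-0.07 and -0.04) were not called, per the authors' deposited tables.

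Adora2a is best known from striatal projection neurons, so 16 genes of those neurons were counted, although the cultures are labelled cortical and hippocampal. The list holds genes of other forebrain neurons too. Of these, 15 had a test; 5 rose and 3 fell with TTX in each arm, and with BIC 2 rose and 9 fell in shCtrl and 4 rose and 8 fell in shRai1. Over all genes with an adjusted p, 11.8% rose and 14.9% fell with TTX and 17.4% and 17.0% with BIC in shCtrl, and 13.7%, 16.8%, 21.3% and 21.3% in shRai1. The list's median with BIC was -0.70 in shCtrl and -0.46 in shRai1. Drd2, the dopamine receptor made by the same striatal neurons as Adora2a, had a mean count of 1472 and fell with BIC, at -2.34 (SE 0.14) in shCtrl and -2.01 (SE 0.11) in shRai1, per the authors' deposited tables. Drd2 rose with TTX by 0.37 (SE 0.11) and 0.48 (SE 0.10), per the authors' deposited tables. Ppp1r1b, a phosphatase inhibitor of dopamine signalling whose interval overlaps 1700003D09Rik, was at 1.00 (SE 0.14) with TTX and -2.28 (SE 0.18) with BIC in shCtrl and at 0.85 (SE 0.13) and -1.97 (SE 0.15) in shRai1, per the authors' deposited tables. Foxp1, a transcription factor of striatum and cortex, was at 0.38 (SE 0.07) and -1.16 (SE 0.08) in shCtrl and 0.40 (SE 0.06) and -1.12 (SE 0.06) in shRai1, per the authors' deposited tables.

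Penk, the enkephalin precursor of the same striatal neurons, did not follow Adora2a. It fell with TTX, at -2.81 (SE 0.14) in shCtrl and -2.001 (SE 0.12) in shRai1, per the authors' deposited tables, and with BIC it stood at 0.29 (SE 0.14, adjusted p 0.0914) and 1.03 (SE 0.11, adjusted p 8.28e-19). Drd1a, the dopamine receptor of the other class of striatal projection neurons, had a mean count of 69.6 and values of 0.37 (SE 0.26, adjusted p 0.293) and 0.68 (SE 0.21, adjusted p 0.00449) with BIC in the authors' deposited tables; it and Pde10a, a striatal phosphodiesterase at 1.15 (SE 0.14) and 1.30 (SE 0.11) with BIC, are named after their values were seen. The list's summed implied count ran from 37585 to 48099 over the 6 groups and was highest with BIC. In bulk libraries, fewer cells of a type and less RNA per cell cannot be told apart.

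**Figure D4:**
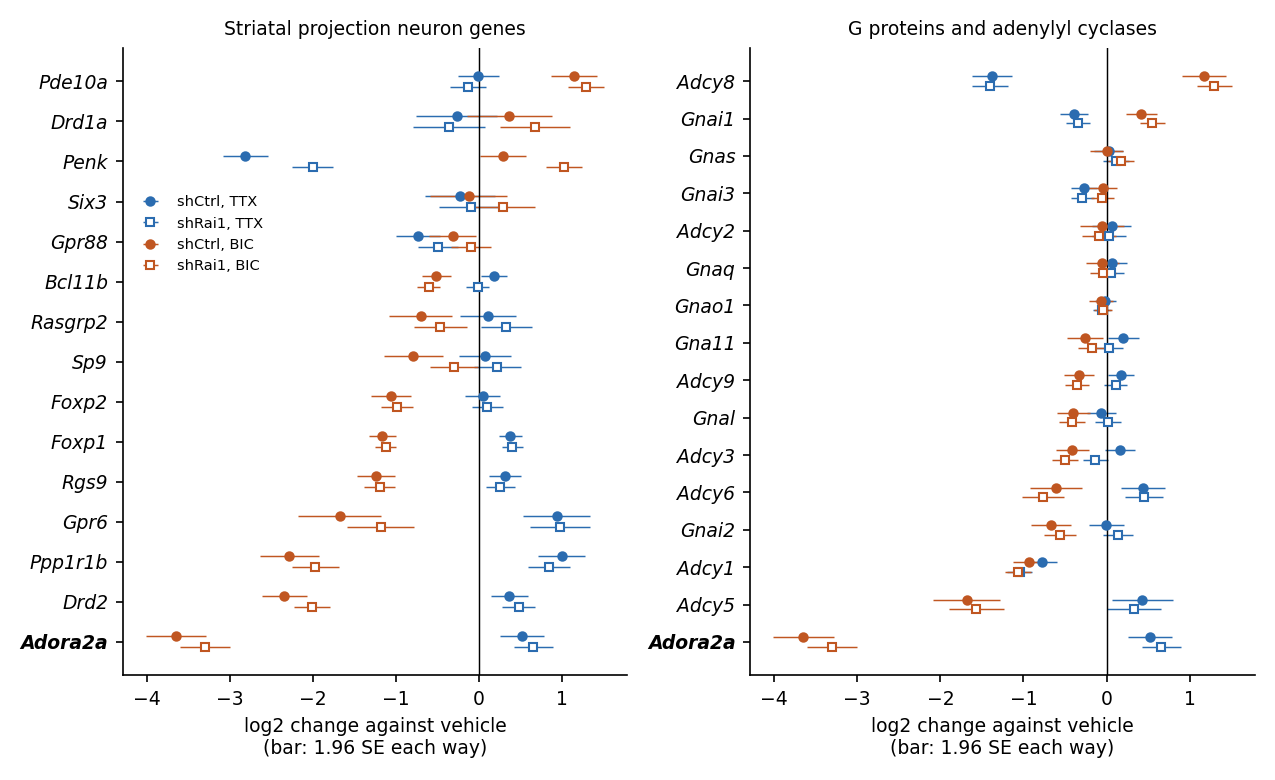
Deposited log2 changes with TTX (blue) and BIC (orange) against vehicle for striatal projection neuron genes (left) and G proteins and adenylyl cyclases (right) whose mean normalized count reached 50, ordered by the BIC change in shCtrl, with Adora2a in each panel; filled circles are shCtrl, open squares shRai1 and bars 95% intervals. Adora2a, Drd2, Ppp1r1b and Adcy5 have the lowest BIC changes named, at -1.57 or below in both arms, and Adcy8, Pde10a and Penk in shRai1 lie right of 1.

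The genes whose 4 drug responses were nearest to those of Adora2a, by Euclidean distance over the log2 changes among 12333 genes with a mean count of at least 50, were Ntsr1 (distance 1.25), Cdh23, Ace, Gprin3 and, last, Fxyd5 (1.76). Ntsr1, a neurotensin receptor, was at 0.82 with TTX and -2.63 with BIC in shCtrl and at 0.25 and -2.76 in shRai1, per the authors' deposited tables. Its TTX value in shRai1 was not called (adjusted p 0.200 in the authors' deposited table). Gprin3, a regulator of neurite outgrowth that binds G proteins, was at 0.23 and -2.67 in shCtrl and at 0.38 and -2.24 in shRai1, per the authors' deposited tables. Its TTX value in shCtrl was not called (adjusted p 0.250 in the authors' deposited table). Cdh23, Ace and Fxyd5 share intervals with other genes. With correlation over the same 4 changes in place of distance, 0 of these 5 genes were chosen, since 992 genes had r above 0.99 with Adora2a over so few points.

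The nearest gene on each side of the 4 members called was looked up after the members' values were seen. All genes found had a mean count of at least 50, so lightly counted genes may lie closer. Specc1l ends 4.48 kb from Adora2a, and its values of 0.23 with TTX and -0.39 with BIC in shCtrl and 0.35 and -0.27 in shRai1, per the authors' deposited tables, had the signs of Adora2a at a smaller size and were called. Gucd1, 172 kb away on the other side, was at 0.72 with TTX and -0.01 (adjusted p 0.961) with BIC in shCtrl and at 0.38 and -0.41 in shRai1, per the authors' deposited tables. Ap3m1, 0.131 kb from Adk, was at -0.28 and -0.54 in shCtrl and -0.17 and -0.40 in shRai1, per the authors' deposited tables, also with the signs of its neighbour, though its TTX value in shRai1 was not called (adjusted p 0.171). Kat6b, 51.2 kb from Adk on the other side, was lower with BIC, at -0.65 and -0.58, and was not called with TTX (0.08 and 0.12), per the authors' deposited tables. Snx14, 4.66 kb from Nt5e, was not called with TTX in shCtrl (-0.06, adjusted p 0.657), where Nt5e fell, was called lower with TTX in shRai1 (-0.18, adjusted p 0.0376), where Nt5e also fell, and rose with BIC by 0.67 and 0.65, where Nt5e did not pass, in the authors' deposited tables. Hsp90ab1, 11.9 kb from Slc29a1, was at -0.36 with BIC in shCtrl and -0.01 in shRai1, per the authors' deposited tables, against -1.03 and -1.43 for Slc29a1. Capn11, on the other side of Slc29a1, was at 0.06 and -0.00 with BIC, per the authors' deposited tables, neither called. Cep162, the gene on the other side of Nt5e, lies 1072 kb away and was at 0.14 (adjusted p 0.610) and 0.56 (adjusted p 0.000974) with TTX, per the authors' deposited tables.

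Of the markers of the labelled cell types, 8 of 8 for neurons and 7 of 8 each for astrocytes and the oligodendrocyte lineage had a mean count of at least 10, with summed implied counts over the 6 groups of 58998 to 84918 for 8 neuron markers, 9850 to 12209 for 8 astrocyte markers and 1739 to 2786 for 8 oligodendrocyte-lineage markers. The neuron sum was 83805 and 84918 with BIC, against 58998 to 66807 in the other groups, so it was higher in the BIC groups, where Adora2a, Adk and Slc29a1 were lower. The 8 markers did not move one way: with BIC 4 were called higher and 3 lower in each arm, beside 17.4% and 17.0% of all genes in shCtrl and 21.3% and 21.3% in shRai1. With TTX, where Adk was also lower, the neuron sum was 64334 in shCtrl and 58998 in shRai1. Astrocytes are the main site of adenosine kinase in adult brain, and the astrocyte sum was 12209 with vehicle, 10325 with TTX and 11814 with BIC in shCtrl, and 10733, 9850 and 11257 in shRai1, while Adk was lowest with BIC. Of the 8 astrocyte markers, 0 were called higher and 3 lower with TTX in shCtrl, and 0 higher and 2 lower with BIC. In shRai1, 2 were called higher and 1 lower with TTX, and 1 higher and 0 lower with BIC. Over all genes, 11.8% rose and 14.9% fell with TTX in shCtrl, and 13.7% and 16.8% in shRai1. The oligodendrocyte-lineage sum was 2786 with vehicle, 2521 with TTX and 2169 with BIC in shCtrl, and 2099.6, 2673 and 1739 in shRai1, so it was lowest in both arms with BIC, as Adora2a, Adk and Slc29a1 were. With TTX 1 of these markers was called higher and 4 lower in shCtrl (median -0.48), and 4 higher and 0 lower in shRai1 (median 0.38), and with BIC 2 were called lower in shCtrl and 1 in shRai1. They also differed between the arms: of 7 with an adjusted p, 4 were called lower in shRai1 with vehicle (median log2 difference of the list -0.67), and 5 had a TTX response that was higher in shRai1 by the test of the difference (median 0.93), beside 0.857% and 1.22% of all genes called in these comparisons. The part of cell composition in these responses was not tested. Markers of cells outside the labels were low, with sums of 110 to 135 for 8 endothelial and pericyte markers, of which Cldn5 had no count and Kcnj8 a mean under 1, and of 175 to 256 for 8 meningeal and fibroblast markers.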

How the data were processed

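Bru-seq libraries in 6 groups (16 libraries) were compared as labelled. Per the submitters' processing notes, the authors used TopHat2 2.1.0, Bowtie2 2.2.6, mm9 and DESeq2; parameters are not given in the sources used here. Each deposited comparison table holds a mean normalized count, a signal the authors averaged over all libraries, a log2 change with its SE, a Wald statistic, a score the authors formed as the change over its SE, and p-values, per the file headers. The deposited log2 changes are pulled toward 0 for lightly counted genes, and the mean count and the closure of the changes (within 1e-09) are those of 1 fit. The authors' FPKM is 1 pooled value per condition with bounds, per the file headers.

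Computed here with Python 3.11.15, pandas 2.3.3 and scipy 1.17.1 were implied group means, 95% intervals, and differences between arms (root of summed squared SEs, two-sided Wald test, Benjamini-Hochberg over 15237 genes, those whose mean reached 10). On simulated data for the TTX difference, 71% of 100 genes changed by 1 and 96% of 100 changed by -2 on the log2 scale were recovered over 15237 genes, with 14 false calls. The simulated noise had the same SEs that the test divides by, and no pull toward 0. The simulation therefore checks the calculation and not whether those SEs fit these data. The vehicle knockdown table has no gene names; 20107 genes were named by their unique mean, and 1085 with means of at most 0.306 were not. Drd1 was matched by its older symbol.

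The members, lists and tests were chosen with earlier results of these data known. Named by rule besides the members are Rai1, up to 4 genes per list with the smallest adjusted p over the 4 drug responses and a mean of at least 50, the 5 genes closest to Adora2a, and genes overlapping a member. Outside this rule are neighbours of the called members, genes overlapping a context gene, and markers with a mean under 1. The rest are marked as named after their values were seen. Alternatives were thresholds of 0.01 and 0.1, other filters, centring, and FPKM ratios with pseudocounts of 0.1 and 1.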

Additional observations from a re-analysis of the deposited data

Results flagged for a closer look

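Penk, on the striatal list, responded to TTX differently in the arms by the test of the difference. Its log2 change was -2.81 (SE 0.14) in shCtrl and -2.001 (SE 0.12) in shRai1, per the authors' deposited tables, a difference of 0.81 (SE 0.18, adjusted p 0.00407 by a Wald test over 15237 genes).

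Mtap, a purine salvage enzyme that splits methylthioadenosine, was the other such gene among the 6 pathway lists and was named after its values were seen. Its TTX change was -0.52 (SE 0.14) in shCtrl and 0.23 (SE 0.13) in shRai1, a difference of 0.75 (SE 0.19, adjusted p 0.0142). With vehicle, shRai1 minus shCtrl was -0.78 (SE 0.13) for Penk and -0.58 (SE 0.14) for Mtap in the authors' deposited table, and with TTX it was 0.03 (SE 0.14) and 0.17 (SE 0.13), not called, so most of each difference lies between the vehicle groups. Oligodendrocyte-lineage markers moved the same way, with 4 of 7 called lower in shRai1 with vehicle and 5 of 7 called in the TTX difference (medians -0.67 and 0.93), beside 0.857% and 1.22% of all genes, and their part in these values was not tested. The 8 adenosine genes gave no such difference.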

How the results depend on the processing

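The number of adenosine genes called was the same as reported in each of the 9 comparisons under 3 alternatives: a threshold of 0.01, no filter on low counts, and centring on the median gene, which lay between -0.0438 and 0.0106 over the comparisons. With BIC it was 4 in both arms at a threshold of 0.1, where Nt5e passed (adjusted p 0.0974 and 0.0882), and 2 in both arms among genes with a mean count of at least 50, which leaves Slc29a1 out; the other 7 comparisons kept their counts under both. Against pooled FPKM, the fall of Nt5e with TTX in shCtrl reversed, with a log2 ratio of 0.0243 at a pseudocount of 0.1 and 0.0216 at 1; the cause was not tested. Adora2a with BIC was -4.81 at a pseudocount of 0.1 and -3.79 at 1, against -3.65 in the comparison table, and Adk was -0.49 and -0.43 against -0.97. Slc29a1 with BIC was -0.81 and -0.54 against -1.03, and Nt5e with BIC 0.85 and 0.77 against 0.39. With TTX, Adora2a was 0.33 and 0.32 against 0.52, and Adk -0.14 and -0.12 against -0.40. In the same order of pseudocounts, Adora3 with BIC was 0.23 and 0.20 against 0.56, and Adora2b, not called with either drug, was 0.12 and 0.095 against -0.20 with TTX and -0.56 and -0.41 against -0.29 with BIC.

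No paired analysis was possible because the files used hold no values per library, only comparisons and pooled levels. For the same reason fits without a replicate were not run, and whether a single library decides a value was not tested. Depth limits the lightly counted genes, of which Ada and Adora3 had the lowest mean counts among the 8 members, at 7.50 and 28.5.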
